A study of Mus musculus with 2 samples.

Results

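The cytosolic ribosomal protein genes are those whose symbols begin Rpl or Rps followed by a number, a p and a number (as in Rplp0), or an a alone (Rpsa), and which have at least 1 transcript annotated as protein_coding. Kinases whose symbols begin Rps6k and symbols holding -ps were left out. The rule took 86 of 55536 gene IDs, 52 Rpl and 34 Rps genes. A further 7 matching symbols had no protein_coding transcript (Rps3a2, Rps3a3, Rps4l, Rpl37rt, Rps12l1, Rpl6l and Rpl32l), and 300 symbols held -ps. Of the 86 genes, 77 encode the proteins of the ubiquitous ribosome, 46 in the large and 31 in the small subunit, and are called core genes here. The other 9 are the paralogues Rpl3l, Rpl7l1, Rpl10l, Rpl22l1, Rpl36al, Rpl39l, Rps27l and Rps27rt, and Rps19bp1, which encodes a protein that binds Rps19 and is not itself a ribosomal protein.

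A ribosome joins a small subunit, which reads the messenger RNA, to a large subunit, which forms the peptide bonds. Most core proteins, though not all, are normally present once per ribosome. Skeletal muscle and heart also make Rpl3l, a paralogue that takes the place of Rpl3 near the catalytic centre of the large subunit. The messenger RNAs of most ribosomal proteins begin with a C and a run of pyrimidines, the TOP sequence, through which the mTORC1 kinase controls their translation, and copies of many of them have been inserted in the genome as processed pseudogenes.

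The tissue was gastrocnemius, a fast calf muscle, of female B6CASTF1/J mice, the first-generation hybrid of C57BL/6J and CAST/EiJ, at 14 days of age. Total RNA-seq gave 2 libraries of 1 group, each from 300 ng of RNA with ERCC spike-ins, so no condition was compared. The library descriptions name 3 females while the tissue text of replicate 2 names a single female, and both libraries carry 1 donor label, so the number of animals behind a library is unclear and the spread between the libraries may be technical. The reference was that of C57BL/6J, and how many reads of CAST/EiJ alleles failed to match it was not tested. Genes held 35592000 and 42105900 expected counts in replicates 1 and 2, and the skeletal muscle fibre markers Acta1, Mylpf and Ckm stood at 28140, 25896 and 16657 TPM in replicate 1. In such bulk tissue, fewer cells of a type and less RNA per cell cannot be told apart. Where 2 values stand together below, the first is replicate 1 and the second replicate 2. TPM is abundance per unit of effective length, scaled to a fixed sum, and is the level used throughout, from the deposited gene tables unless the direct quantification is named, a second deposited table made straight from the reads and summed here per gene.

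The sequences of Rpl3l and Rpl3 had no read-length stretch in common. Their coding sequences were identical at 74.1% of 1206 aligned bases, with no run of identity longer than 22 bases and no identical 100-base window, the length that the gene tables' effective lengths imply for a read. The most alike 100-base stretch of the pair, which still held 17 differences, is printed as the place where the 2 genes come closest to sharing reads. It covers coding bases 685 to 784 of each gene and spans 2 exons in each (chr17:24733492-24733679, plus strand, for Rpl3l and chr15:80079755-80080369, minus strand, for Rpl3, both mm10, from GENCODE M21 transcripts). Capitals mark the bases that differ.
Rpl3l: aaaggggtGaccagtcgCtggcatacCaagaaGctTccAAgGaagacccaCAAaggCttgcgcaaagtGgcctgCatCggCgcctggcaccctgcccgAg
Rpl3: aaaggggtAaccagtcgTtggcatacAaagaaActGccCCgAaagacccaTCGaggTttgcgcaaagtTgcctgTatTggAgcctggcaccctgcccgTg

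Rpl36al and Rpl36a, the closest pair apart from Rps27rt and Rps27, were identical at 87.7% of 318 coding bases, and their most alike window held 4 differences, marked in capitals below. It covers coding bases 217 to 316, within 1 exon of Rpl36al (chr12:69182821-69182920, minus strand) and across 2 exons of Rpl36a (chrX:134587490-134587952, plus strand).
Rpl36al: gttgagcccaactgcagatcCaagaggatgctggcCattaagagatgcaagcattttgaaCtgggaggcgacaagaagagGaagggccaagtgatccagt
Rpl36a: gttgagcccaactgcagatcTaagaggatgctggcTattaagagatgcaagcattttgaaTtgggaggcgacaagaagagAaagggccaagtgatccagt

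For Rps27rt and Rpl10-ps3 no coding base separates the copy from its parent gene. The whole coding sequence of Rps27rt, a retrogene of Rps27, was identical to that of Rps27 over 252 bases, and that of Rpl10-ps3, which M21 types as protein_coding despite its name, was identical to that of Rpl10 over 642 bases. The first 100 coding bases of each copy are printed as the stretch that is the same in both genes (chr9:114982608-114982707 for Rps27rt and chr9:50344842-50344941 for Rpl10-ps3, both minus strand).
Rps27rt: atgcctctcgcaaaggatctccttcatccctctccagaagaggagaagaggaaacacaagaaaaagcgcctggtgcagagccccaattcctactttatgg
Rpl10-ps3: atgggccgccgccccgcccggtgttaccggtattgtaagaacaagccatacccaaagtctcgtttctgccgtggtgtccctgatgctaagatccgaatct

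Starts of transcription from RefSeq (GRCm38.p6) were matched for 66 of the 86 genes, and each was read on the gene's own strand only. A C at base 1 followed by at least 4 C or T stood at the start of 14 of these 66 genes, 21.2%, against 3.01% of 27025 genes. Such a run began within 5 bases of the start in 30 of the 66 genes, 45.5%, against a share of 21.2% of all genes. A match describes the letters in this window and is not a mapped start. The windows below run from 10 bases before the start to 20 bases from it, with capitals that begin at a C within 5 bases of the start and go on through base 1 to the last pyrimidine of the run. More pyrimidines can stand directly before the capitals, as they do in Rpl38 and Rpl35. They are Rpl38 (chr11:114668570-114668599, plus strand), Rps15a (chr7:118116128-118116157, minus strand), Rps6 (chr4:86857348-86857377, minus strand) and Rpl35 (chr2:39005112-39005141, minus strand). Rpl3l (chr17:24727816-24727845, plus strand) is printed beside them as a gene whose longest such run near the start was 4 bases, too short to be capitalised. Rpl3 was not among the genes matched.
Rpl38: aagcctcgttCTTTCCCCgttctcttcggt
Rps15a: tttctgccatCTTCCCTCgccggtgagtga
Rps6: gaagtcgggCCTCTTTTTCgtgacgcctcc
Rpl35: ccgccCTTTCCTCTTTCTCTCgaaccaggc
Rpl3l: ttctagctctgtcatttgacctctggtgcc

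The ribosomal protein genes were among the most abundant messengers of this muscle. They summed to 20527 and 24685 TPM, 2.29% ± 0.297 of the TPM of all genes and 4.62% ± 0.429 of that of nuclear protein-coding genes (mean ± SD, n = 2). Being short, with a median length of 606 bases in replicate 1 against 2421 bases for coding genes at 1 TPM or more, they took 0.898% and 1.05% of the counts. At least 1 TPM in both libraries was reached by 84 of the 86 genes, 97.7%, against 50% of 22015 nuclear protein-coding genes. At least 100 TPM in both was reached by 69 of the 86, 80.2%, against 2.3% of nuclear protein-coding genes. The genes lie on 19 chromosomes, 14 of them on chromosome 7 and 4 on the X chromosome (Rpl10, Rpl36a, Rpl39 and Rps4x).

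Both subunits were represented at similar levels. The median core gene stood at 250.03 and 302.29 TPM. Large subunit genes had a median of 258.8 and 318.4 TPM, against 246.4 and 294.3 TPM for small subunit genes, a ratio of 1.07 ± 0.0224. That ratio fell below 1 for counts not divided by length, at 0.932. Ribosomal proteins whose symbols fall outside the rule were at like levels, with Fau (Rps30 fused to a ubiquitin-like protein) at 219.82 and 266.30 TPM, and Rack1, a scaffold on the small subunit, at 176.40 and 208.91 TPM.

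**Figure D1:**
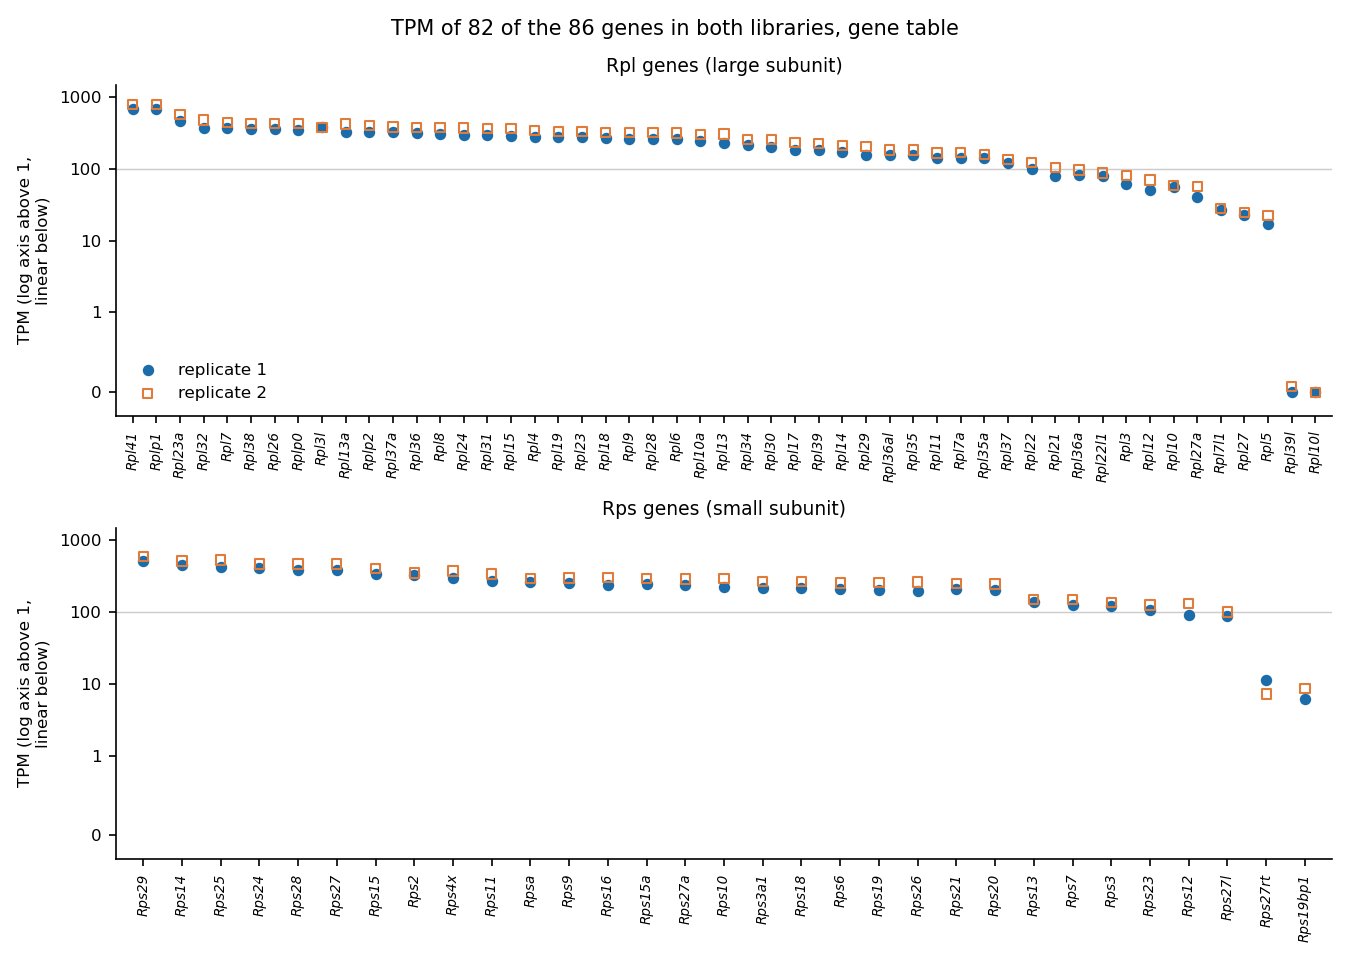
TPM of 82 of the 86 genes in the gene table, Rpl genes above and Rps genes below (the Rps panel also holds Rps19bp1), ordered by mean TPM, with filled circles for replicate 1 and open squares for replicate 2; the vertical axis is logarithmic above 1 TPM and linear below, and the grey line marks 100 TPM. Most genes lie between 100 and 800 TPM, Rpl3l is among the upper Rpl genes while Rpl3 is near the low end, and Rpl39l and Rpl10l lie at 0 or close to it.

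In the large subunit, the highest level was that of Rpl41, its smallest protein, at 689.46 and 792.16 TPM. Rplp1, an acidic protein of the stalk that recruits translation factors, followed at 691.26 and 790.07 TPM. The 2 genes lie within the spread of the libraries of one another. Rpl23a, which lies at the mouth of the peptide exit tunnel, stood at 458.48 and 572.46 TPM. Rpl32 was also among the 10 highest genes of both subunits, at 376.09 and 481.11 TPM.

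In the small subunit, Rps29 led with 504.91 and 587.51 TPM and Rps14 followed with 453.12 and 511.10 TPM. Rps25, which many viral internal ribosome entry sites depend on, stood at 421.22 and 531.07 TPM. Rps24 stood at 415.32 and 467.40 TPM. The 10 highest genes of both subunits together held 24.3% and 23.9% of the TPM of all 86.

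The lowest levels belonged to specialised paralogues and to a set of core genes with abundant pseudogenes. Rpl10l, which replaces X-linked Rpl10 in male germ cells, had 0 counts in both libraries, which at 3 counts allows up to 0.115 and 0.0999 TPM. Rpl39l, a paralogue of Rpl39 also known from male germ cells, had 0 and 1 count, and 3 counts would give 0.184 and 0.205 TPM. Rps19bp1 stood at 6.21 and 8.62 TPM and Rps27rt at 11.15 and 7.19 TPM. Rpl7l1, a nucleolar relative of Rpl7, stood at 26.44 and 27.95 TPM.

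Core genes spread over a wide range in the gene tables. The 90th percentile of their TPM was 4.49 ± 0.375 times the 10th, and the highest was 39.9 and 35.6 times the lowest. At the low end were Rpl5, which with Rpl11 and 5S ribosomal RNA restrains Mdm2, at 17.33 and 22.24 TPM, and Rpl27 at 22.47 and 24.51 TPM. Rpl27a followed at 40.06 and 56.52 TPM, Rpl10, which is added late and completes the catalytic centre, at 56.68 and 59.15 TPM, and Rpl12, at the base of the stalk, at 51.64 and 69.87 TPM. Rpl3 was next, at 61.54 and 81.34 TPM.

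Rpl3l far exceeded Rpl3. Rpl3l (ENSMUSG00000002500.15; chr17:24727820-24736143, plus strand) had 13571 and 15746 counts and 381.24 and 380.59 TPM, against 61.54 and 81.34 TPM for Rpl3 (ENSMUSG00000060036.14; chr15:80077791-80091868, minus strand). Rpl3l was 6.20-fold and 4.68-fold above Rpl3, a log2 ratio of 2.43 ± 0.286 (n = 2), and the deposited intervals around the posterior mean TPM did not overlap in either library. It made up 86.1% and 82.4% of the TPM of the pair. Transcript Rpl3l-202, protein_coding, held 98.2% and 99.4% of the gene's TPM.

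Rpl3l lay within the range of the core genes, with 11 of the 77 core genes above it in replicate 1 and 21 in replicate 2. Rpl3 had 75 of the 86 genes above it in each library. Rpl3l and Rpl3 together came to 442.8 and 461.9 TPM, which was 1.77 and 1.53 times the core median. The deposited posterior standard deviation of the Rpl3l count was 0, and none of its 100-base windows occurred in another gene. Of the windows of Rpl3, 79.4% occurred elsewhere, and Rpl3-ps1 alone shared 76.1% and was listed at 42.38 and 51.95 TPM. With all pseudogenes sharing a window added to Rpl3, Rpl3l still made up 78.6% and 74.0% of the sum. In the direct quantification Rpl3l stood at 587.55 and 623.90 TPM, against 140.92 and 179.15 TPM for Rpl3, 4.17-fold and 3.48-fold above it.

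**Figure D2:**
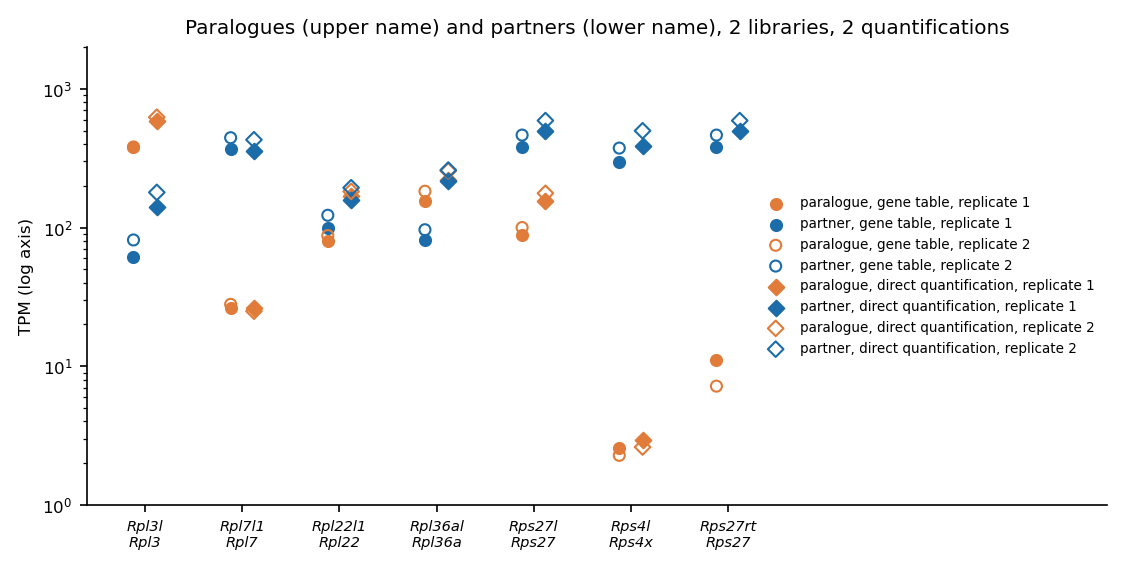
TPM, on a logarithmic axis, of 7 paralogues (orange) and their partners (blue), with circles for the gene table, diamonds for the direct quantification, filled symbols for replicate 1 and open symbols for replicate 2. Rpl3l lies above Rpl3 in both quantifications, Rpl36al lies above Rpl36a in the gene table only, and Rps27rt has no diamond because the direct quantification lists it at 0.

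Rpl7l1, Rps27l and Rps4l were below their partners. Rpl7l1 was below Rpl7, which had 366.93 and 443.87 TPM, by a log2 ratio of -3.89 ± 0.138. Rps27l, a p53 target, had 87.85 and 99.96 TPM, against 382.38 and 463.69 TPM for Rps27, a log2 ratio of -2.17 ± 0.0649. Rps4l, listed without a protein_coding transcript, had 2.57 and 2.28 TPM, against 294.84 and 373.60 TPM for X-linked Rps4x. For these 3 pairs the direct quantification gave the same direction.

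Rpl22l1 and Rpl36al were close to their partners, and their order depended on the quantification. Rpl22l1 had 80.48 and 87.47 TPM, against 99.56 and 122.54 TPM for Rpl22, a log2 ratio of -0.40 ± 0.127, but in the direct quantification it was 1.06-fold above Rpl22 in replicate 1 and 0.941-fold in replicate 2. Rpl36al had 156.48 and 182.60 TPM, against 81.69 and 96.37 TPM for Rpl36a, a log2 ratio of 0.93 ± 0.0111. The direct quantification gave Rpl36al 219.01 and 255.95 TPM and Rpl36a 216.13 and 259.57 TPM, with no difference beyond the spread of the libraries. Rpl36a shared 57.8% of its windows with the pseudogene Rpl36a-ps2, which was listed at 139.64 and 182.53 TPM in the gene tables and at 0 in the direct quantification. Of the 7 paralogues in the set other than Rpl3l, 1 (Rpl36al) was above its partner in both libraries in the gene tables. In the direct quantification 0 of the 7 were above in both libraries and 2, Rpl22l1 and Rpl36al, were above in replicate 1 alone.

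A muscle paralogue elsewhere in translation stood in the same order. Eef1a2, the elongation factor 1 alpha of mature muscle and neurons, had 1072.44 and 1172.23 TPM, against 634.62 and 813.41 TPM for the ubiquitous Eef1a1, 1.69-fold and 1.44-fold above it.

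Sequence shared with other genes was common. At least 1 100-base window recurred in another gene for 76 of the 86 genes, 88.4%, against 22.8% of 21852 genes with a protein_coding transcript of that length. At least 50% of windows recurred for 34 of the 86, 39.5%, against 6.8%. The posterior standard deviation of the count exceeded 1% of the count in either library for 32 of 84 genes with a summed count of at least 20, 38.1%, against 12.1% of 15734 genes. It was largest for Rps27rt, at 30.9% and 33.9% of the count, followed by Rpl10 at 12.4% and 9.66%, Rps12 at 9.93% and 8.12%, Rpl27 at 6.62% and 7.24%, and Rpl36a at 4.34% and 3.99%. Rpl3, Rpl5, Rpl12, Rps7 and Rpl11 completed the 10 largest, between 2.47% and 3.56%. A total of 10 genes shared no window, Rpl3l, Rpl22, Rpl32 and Rps3 among them.

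Pseudogenes held reads beside the lowest core genes. The 458 pseudogenes that shared a window with any of the 86 genes summed to 6355 and 7839 TPM. Below 100 TPM in at least 1 library lay 10 of the 77 core genes, and 9 of these shared a window with pseudogenes whose summed TPM was between 42.4 and 405.2. For 8 of them the pseudogenes' TPM exceeded the gene's own in both libraries, as it did for 6 of the other 67 core genes. The 10 genes were picked for a low TPM of their own, which by itself makes such an excess more likely. The 2 counts therefore cannot show a link between a low level and pseudogenes, which was not tested. The exception without a pseudogene was Rpl22, at 99.56 TPM in replicate 1. With these pseudogenes added, 76 of the 77 core genes reached 100 TPM in both libraries, and the ratio of the 90th to the 10th percentile was 2.26 ± 0.0641. Whether the reads listed under pseudogenes came from them or from the parent genes was not tested.

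**Figure D3:**
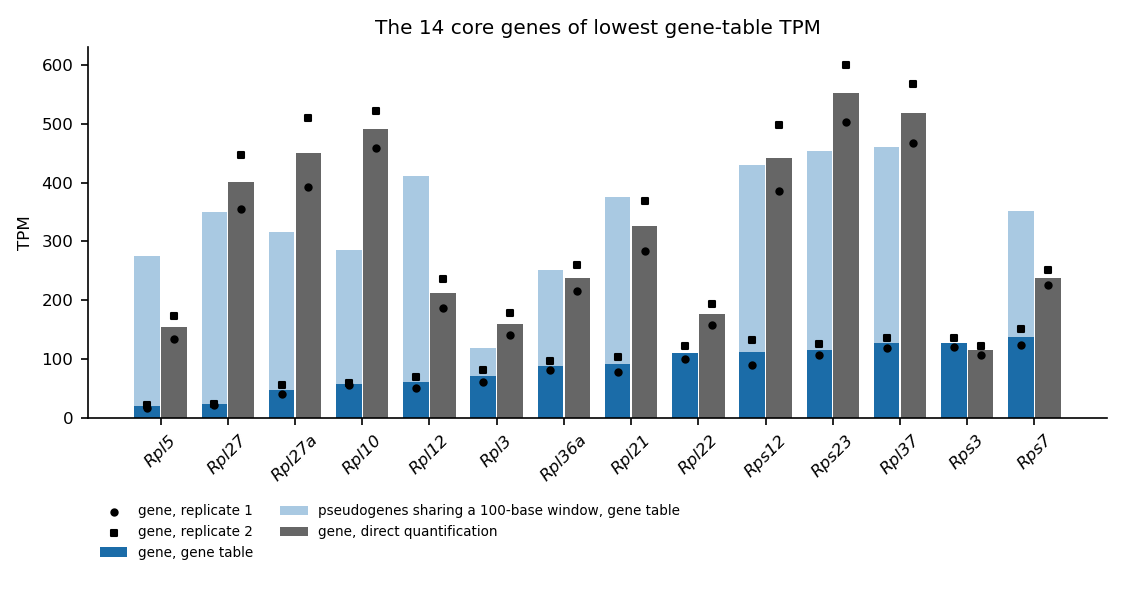
Mean TPM over the 2 libraries of the 14 core genes of lowest gene-table TPM, from Rpl5 to Rps7, with the gene (dark blue) and the pseudogenes sharing a 100-base window with it (light blue) stacked from the gene table and the direct quantification of the gene in grey; circles and squares mark the gene in replicates 1 and 2. Rpl22 and Rps3 have no light blue part, and for Rpl27, Rpl27a, Rpl10 and Rps23, among others, the grey bar exceeds the stacked one. TPM of the direct quantification were higher for most genes, with a median of 1.64 times the gene table for 84 ribosomal protein genes. The heights of grey and blue bars are therefore not on a like scale.

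The direct quantification assigned these reads differently. Its TPM were higher for most genes, with a median of 1.64 times the gene table for 84 ribosomal protein genes and 1.34 times for 11004 nuclear coding genes at 1 TPM or more, and its length correction was larger, at a median of 341 bases for long transcripts in replicate 1, against 99 bases in the gene table. Counts, which carry no length correction, are therefore compared. They were above those of the gene table for 52 of 84 genes, 61.9%, against 79.4% of coding genes. More than 2 times as many counts were given to 8 of the 84 genes, 9.52%, against 0.364% of coding genes, and fewer than 0.5 times as many to 6, 7.14%, against 0.881%.

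The 8 genes given more counts were Rpl27, Rpl10, Rps23, Rpl27a, Rpl5, Rpl28, Rpl21 and Rpl36a. Rpl27 had 2923 and 4205 counts in the direct quantification, against 367 and 366 in the gene table, while its pseudogenes Rpl27-ps3 and Gm11518 were each listed at 141.96 and 184.35 TPM in the gene table and at 0 in the direct quantification. Rpl10 had 5254 and 6953 counts in the direct quantification, against 1124 and 1378 in the gene table, and Rpl10-ps3 had 0 TPM in the direct quantification, against 209.05 and 245.77 in the gene table. Rps23, which lies at the decoding centre, had 4228 and 5804 counts in the direct quantification, against 1262 and 1748 in the gene table.

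Pseudogenes of Rpl5 and Rpl27a had TPM above 0 in both quantifications. Rpl5 had 2165 and 3190 counts in the direct quantification, against 863 and 1231 in the gene table, but Gm15500, which shared 47.2% of its windows, was listed at 256.36 and 325.51 TPM in the direct quantification, against 222.22 and 287.89 TPM in the gene table. Rpl27a had 2693 and 3922 counts in the direct quantification, against 899 and 1377 in the gene table, and Gm7536 had 139.70 and 172.12 TPM in the direct quantification, against 195.09 and 244.53 TPM in the gene table. Rps12, which is not among these 8 genes, had 2407 and 3575 counts in the direct quantification, against 1214 and 2042 in the gene table, and Rps12-ps3 was listed at 0 in the direct quantification, against 214.48 and 244.51 TPM in the gene table.

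The 6 genes given fewer counts were Rps27rt, Rpl36, Rps29, Rplp1, Rpl19 and Rps21. Rps27rt, at 86.3 and 64.3 counts in the gene table, had 0 in the direct quantification. Rpl36 had 353 and 510 counts in the direct quantification, against 2528 and 3513 in the gene table, and Rpl19 had 1601 and 2299 in the direct quantification, against 5146 and 7064 in the gene table. For Rpl19 the pseudogene went the other way, with Rpl19-ps11 at 287.50 and 335.26 TPM in the direct quantification, against 15.57 and 20.20 TPM in the gene table. Rps29 had 1063 and 1361 counts in the direct quantification, against 4134 and 5560 in the gene table. Rps21 had 620 and 866 counts in the direct quantification, against 1718 and 2368 in the gene table, although it shared no window with another gene. By TPM, Rpl17 was the other gene of the 5 furthest below the gene table, at 153.98 and 173.96 TPM in the direct quantification, against 185.08 and 233.87 TPM in the gene table.

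**Figure D4:**
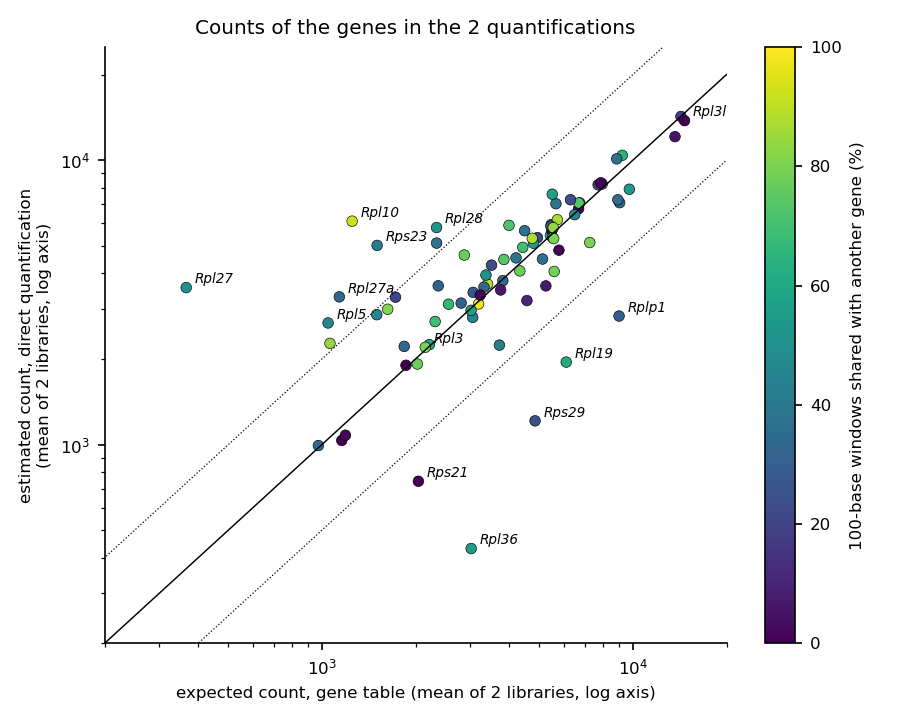
Mean count over the 2 libraries of each gene above 10 counts in the gene table (horizontal) and in the direct quantification (vertical), both on logarithmic axes, coloured by the percent of its 100-base windows shared with another gene; the solid line marks equal counts and the dotted lines 2-fold differences. Rpl3l lies on the line near the upper end, Rpl27 and Rpl10 lie farthest above it, and Rpl36 and Rps29 farthest below.

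Across the 84 genes at 1 TPM or more, the order by TPM in the 2 quantifications was similar but not the same (Spearman's rho 0.692 and 0.684 across genes, which share the libraries and are not independent). The direct quantification placed every core gene at 100 TPM or more in both libraries and gave a ratio of the 90th to the 10th percentile of 3.34 ± 0.00991, against 4.49 ± 0.375 in the gene tables.

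Most TPM of these genes lay in protein_coding transcripts. They held 82.7% and 82.8%, retained_intron transcripts 7.73% and 7.57%, processed_transcript forms 5.10% and 5.02%, and nonsense_mediated_decay forms 4.45% and 4.65%. The direct quantification gave protein_coding transcripts 70.2% and 69.4%. The leading transcript was not protein_coding for 14 of 84 detected genes, 16.7%, against 6.24% of nuclear protein-coding genes at 1 TPM or more.

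Those 14 genes fell into 3 kinds. The leading transcript was a nonsense_mediated_decay form for genes including Rpsa (81.9% and 82.3% of the gene's TPM), which also serves as a laminin receptor, and Rpl12 (52.9% and 58.4%). It was a retained_intron form for genes including Rps16, Rps18, Rps20, Rps23 and Rps26, with Rps26, at the exit of the messenger channel, highest at 94.9% in each library. It was a processed_transcript form for Rpl22l1, Rpl23, Rpl24, Rpl35 and Rpl37, with Rpl35 highest at 96.0% and 95.2%. The direct quantification named the same leading transcript for 35 of the 84 genes, 41.7%, against 78.2% of nuclear coding genes at 1 TPM or more. Its leading form was not protein_coding for 23 of the 84, 27.4%, against 8.3% of those coding genes. For Rpsa and Rpl24 the direct quantification was led by a protein_coding form, while for Rps16 and Rpl23 it kept the form that led in the gene table.

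Between the libraries most ribosomal protein genes were slightly higher in replicate 2. The log2 ratio of replicate 2 over replicate 1, from counts scaled by TMM (which takes most genes as unchanged), had a median of 0.11 over 84 genes and 0.01 over all 15734 genes with a summed count of at least 20. It was above 0 for 76 of 84, 90.5%, against 51.4% of all genes, and below 0 for 8. More than 1.5-fold higher in replicate 2 were 0 of 84 genes, against 7.85% of all genes, and more than 1.5-fold lower was 1, against 5.65%. All genes include those of low count, whose ratios scatter more. Of 556 nuclear protein-coding genes at a mean TPM of at least 100, ribosomal protein genes among them, 14 were more than 1.5-fold higher and 25 lower. Their median was -0.09, with 215 above 0. The core genes without a posterior standard deviation over 1% gave a median of 0.11, and 46 of 46 were above 0. With 1 library on each side there was no test of these ratios.

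Rpl3l and Rpl3 lay on opposite sides of 0 on this scale. The log2 ratio was -0.16 for Rpl3l (95% interval -0.19 to -0.12, exact binomial, counting error only) and 0.31 for Rpl3 (0.22 to 0.40). Rpl3l was above 0, at 0.065, when scaled to the spike-ins, which brought the median of all genes to 0.23. Relative to the median of all genes, Rpl3l was at -0.16 and Rpl3 at 0.30. Scaling by 1 factor per library shifts all genes alike, so these differences cannot change with it and are not a check on it. TPM of Rpl3l was 381.24 and 380.59, while TPM was higher in replicate 2 for 82 of the 84 genes at 1 TPM or more in both libraries, 97.6%, against 73.4% of nuclear coding genes at that level.

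The largest ratios belonged to genes with shared reads. Rps12 was highest at 0.38 (0.28 to 0.48), and Rps27rt, the gene past 1.5-fold, was lowest at -0.79 (-1.29 to -0.31), from 86.3 and 64.3 counts. Rpl27 followed at -0.37 (-0.59 to -0.16), from 367 and 366 counts. A ratio below 0 held for Rpl27 in the gene table only, since the direct quantification gave it 2923 and 4205 counts. Intervals lay wholly above 0 for 61 of the 84 genes, 72.6%, against 19.1% of all 15734 genes with a summed count of at least 20. They lay wholly below 0 for 4 of the 84, 4.76%, against 19.2% of all genes. Such intervals narrow as counts rise, and the 15734 genes were not matched to the 84 by count. These shares therefore also depend on counts, and none was computed for genes of like counts.

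**Figure D5:**
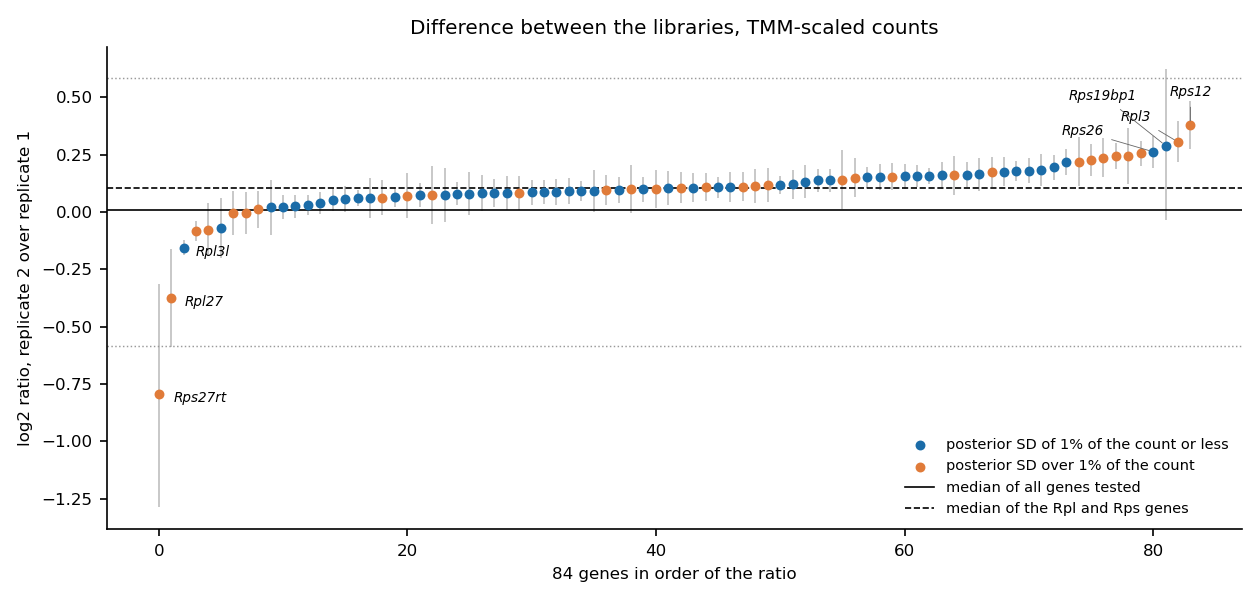
Log2 ratio of replicate 2 over replicate 1 of TMM-scaled counts for the 84 genes with a summed count of at least 20, in order of the ratio, with exact binomial 95% intervals that cover counting error only; orange marks genes whose posterior standard deviation exceeds 1% of the count in either library, and dotted lines mark 1.5-fold. Most genes lie between 0 and 0.3 with a median of 0.11 (dashed), above the 0.01 of all genes (solid), and Rpl3l, Rpl27 and Rps27rt lie at the low end.

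Several lists of other genes differed by more between the libraries. The 4 Schwann cell markers had a median log2 ratio of 1.18 and a summed TPM of 254.5 and 672.6, the 4 erythroid markers -1.16 and 2828 and 1439 TPM, the 6 fibro-adipogenic markers 0.31 and 2793 and 4502 TPM, and the 6 muscle fibre markers -0.07, with 6 of 6 below 0. The 5 endothelial, 5 macrophage and 3 proliferation markers had medians of -0.20, 0.07 and 0.13. The part of these cell types in the ratios of the ribosomal protein genes was not tested. The 78 mitochondrial ribosomal protein genes, a list chosen after values were seen, had a median of -0.16. Below 0 were 67 of these 78, against 7651 of all 15734 genes with a summed count of at least 20. Their median level was 24.3 and 24.7 TPM.

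Lists of other translation genes were measured on the same scale. Of all 15734 genes with a summed count of at least 20, 51.4% were above 0. More than 1.5-fold higher in replicate 2 were 7.85% of them, and more than 1.5-fold lower 5.65%. Ribosome assembly factors had a median of 0.11, with 31 of 36 above 0 and 1 past 1.5-fold, led in level by Npm1, a nucleolar chaperone, at 63.52 and 70.59 TPM, Ncl at 48.28 and 58.27 TPM and Nop10 at 26.54 and 28.14 TPM. The list of elongation factors also held Eef2k, Eef1akmt1 and Eef1e1, which are not elongation factors themselves. That list had a median of 0.08, with 7 of 11 above 0 and 0 past 1.5-fold. It was led by Eef1a2, Eef1a1 and Eef2, the last at 414.07 and 437.71 TPM. Initiation factors had a median of 0.01, with 19 of 37 above 0 and 0 past 1.5-fold, led by Eif1 at 375.43 and 380.93 TPM, Eif4g2 at 263.38 and 295.44 TPM and Eif4a2 at 142.51 and 143.51 TPM.

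Termination and recycling factors, 6 genes led by Etf1 at 28.40 and 32.29 TPM, Gspt1 at 26.54 and 33.01 TPM and Hbs1l at 24.02 and 25.44 TPM, had a median of 0.07. RNA polymerase I genes, which make the ribosomal RNA, had a median of 0.01, with 8 of 15 above 0, led by Polr1d at 39.79 and 46.22 TPM, Taf1d at 24.09 and 23.52 TPM and Ubtf at 18.01 and 22.16 TPM. Genes of mTORC1 and its control of TOP messengers had a median of -0.05, with 9 of 19 above 0, led by Eif4ebp2 at 40.63 and 42.20 TPM, Akt1s1 at 40.38 and 42.28 TPM and Eif4ebp1 at 36.03 and 41.49 TPM. TOP messengers outside the ribosome had a median of 0.02, with 7 of 14 above 0, and included Tpt1 at 1416.14 and 1555.78 TPM. None of the genes in these 4 lists passed 1.5-fold.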

How the data were processed

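Total RNA of mouse gastrocnemius was measured in 2 libraries of 1 group. Per the accompanying notes, the authors deposited, for each library, tables of genes and of transcripts derived from transcriptome alignments, and another table of transcripts derived from the reads themselves, all on assembly mm10 with annotation GENCODE M21. Not given in the sources used here are the strand setting and the names and versions of aligner and quantifiers. Per the file headers, the alignment-based tables hold expected counts, in which a read that matches several genes is split, and TPM, a level per unit of length. The deposited isoform percent is each transcript's share of its gene's TPM, and the deposited posterior standard deviation of the count and interval around the posterior mean TPM describe how reads were divided. The second deposited table holds estimated counts and TPM, summed here per gene as the direct quantification.

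Rows named by a number and phiX (26249, with 2 and 0 counts) were left out. Gene counts summed to 35592000 and 42105900. Shares of TPM leave out spike-ins. Counts were rounded, and log2 ratios of replicate 2 over replicate 1 used TMM in edgeR 4.0.16, a prior count of 0.5 and genes with a summed count of at least 20. Their 95% Clopper-Pearson intervals cover counting error only, as does the limit of 3 counts for a gene at 0. With 1 library on each side no residual degrees of freedom remain, so edgeR and DESeq2 1.42.0 gave scaling factors only. Every 100-base window of each gene's most abundant protein_coding transcript was searched, on the same strand, in the M21 transcripts of all other genes. The ratios and the window search were tested on simulated data, and the intervals were not. R 4.3.3, Python 3.11.15, pandas 2.3.3 and numpy 2.4.6 were used.

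The genes and lists were chosen with earlier results of these data known. Named genes were the paralogue pairs, the 10 of highest and 10 of lowest mean TPM, those past 1.5-fold, the 10 of largest relative posterior standard deviation, the 5 each way that differed most between quantifications, those led by a transcript that is not protein_coding, Fau, Rack1 and the 3 highest of each other translation list. The further genes of the count comparison, Rpl28, Rpl21 and Rps21, the genes printed with their start windows, and the genes sharing no window were chosen after their values were seen. Some genes that the rule takes are not reported here. Alternatives were other scalings, minimum counts, prior counts, thresholds, denominators and the direct quantification.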

Additional observations from a re-analysis of the deposited data

How the results depend on the processing

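No paired analysis was possible because the series holds 1 group of 2 libraries. The direct quantification moved the share of TPM to 3.89%, the percentile ratio of core genes to 3.34, the ratio of large to small subunit medians to 1.04, the log2 ratio of Rpl3l over Rpl3 to 1.93, the paralogues above their partners by the mean of the libraries to 0 of 6 (without Rps27rt; Rpl22l1 and Rpl36al were above in replicate 1), the genes past 1.5-fold to 0 and the protein_coding share to 69.8%, and Rpl36al over Rpl36a turned to -0.00060. CPM, counts not divided by length, gave a share of 0.976%, a percentile ratio of 4.88, a subunit ratio of 0.932 (reversed) and a Rpl3l over Rpl3 log2 ratio of 2.80. Against nuclear coding genes the share was 4.62%. Adding pseudogenes, chosen after seeing the data, gave 3.01%, 2.26 and, for Rpl3l over Rpl3, 1.69. The median log2 ratio between libraries was 0.33 by spike-ins, where Rpl3l turned to 0.065, and 0.23 by library totals, while all genes shifted as much. The genes past 1.5-fold were 2 with no minimum count and 0 at 2-fold, and 4 genes shared reads at 5%. In 21 other recomputations of these results, among them the number detected, the value stayed within a limit. The limit was the spread of the libraries, or for a count a factor of 1.5. For the median log2 ratio between libraries it was 0.0637, the median half-width of the counting intervals. For single pairs and for the library ratios of Rpl3l and Rpl3, 18 recomputed values stayed within that spread or the counting interval and 10 moved further, among them Rpl22l1 over Rpl22, which came to -9.76e-05 in the direct quantification. Values without replicate 1 and without replicate 2 are not counted here, since a mean of 2 libraries cannot differ from either by more than their SD, which says nothing of stability. Each value is from 2 libraries of 1 group, so none has a test over animals, and low counts limit Rpl10l, Rpl39l and Rps27rt.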
